A study of Saccharomyces cerevisiae with 2 samples.

Results

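The strains described here each lack 1 copy of a gene for the mevalonate pathway, ergosterol synthesis, dolichol synthesis, protein prenylation, sterol esterification or the control of sterol genes. The rule is a list of 35 gene symbols by pathway role and holds no measured ratio, although it was drawn up with earlier results of these data known. All 35 were found among the 5219 strains of Saccharomyces cerevisiae that had a value on both arrays. The series asks for synthetic haploinsufficiency with TUB1, the gene of the major alpha-tubulin, that is, for genes whose loss of 1 copy alters growth in diploids that also lack 1 copy of TUB1. Per the labels, a pool of 5896 heterozygous diploid deletion strains, convertible to haploids, was transformed with URA3 targeted either to TUB1, deleting 1 copy, or to the ura3 locus as the control (ura3D::URA3), and both pools grew for 2 days at 30 °C without uracil. Strains were counted through their 2 identifying tags, amplified from genomic DNA and hybridised together, the control pool in Cy5 and the tub1 pool in Cy3, on 2 arrays labelled experiments 1 and 2.

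The mevalonate pathway builds the isoprenoid units of the cell from acetyl-CoA. Farnesyl pyrophosphate stands at its branch point: condensed to squalene it leads to ergosterol, the main sterol of yeast membranes, and lengthened it gives dolichol, the lipid carrier of protein glycosylation. Farnesyl and geranylgeranyl groups are also attached to proteins such as Ras, which then bind membranes. In a heterozygous diploid the remaining copy still supplies the enzyme, so a strain's ratio reports a reduced gene dose, not a loss of function.

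All ratios are log2 of 1 dye over the other, less the median of the array and tag set. They keep the sign of the deposited values and are given as mean ± SD over n = 2 arrays. The direction is not stated in the labels. The scanner program usually divides red by green, and with the labelled dyes this makes control over tub1 the likely reading of a positive value, that is, fewer tags of the strain when TUB1 is reduced. The TUB1 strain itself could not check this, since 0 of its 4 tag values were measured. Slower growth of a strain and fewer transformants of it cannot be told apart in a tag ratio. The labels do not say whether the arrays came from separate transformations, so the spread between them may be technical, and because the dyes were not swapped between arrays, any dye bias remains in the mean. The 2 tags of a strain are called the first and second tag, because the annotation does not say which is the upstream one. Strain identity rests on the platform annotation.

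The highest ratio of the pathway belonged to ERG12, the mevalonate kinase gene, whose 4 tag values also lay close together. Strains of the mevalonate steps had mostly positive ratios, with a median of 0.25, and strains of the steps from lanosterol to ergosterol had mostly negative ones, with a median of -0.39. The median was -0.20 over all 35 strains and -0.09 over all 5219. No strain passed the test of its ratio against 0 with limma at an adjusted p under 0.05: 0 of 35 members and 0% of all strains in either direction, and the smallest adjusted p of the series, 0.229, was shared by 717 strains. In an alternative limma fit with both tags and the array as a random block, 350 positive and 166 negative of 5219 strains passed. Of the 35 members, 3 passed as positive, ERG12 (limma adjusted p 0.0168), ERG20 (0.0392) and HMG2 (0.0434), and 0 as negative. The correlation estimated within an array was -0.29 in this fit, which by construction makes standard errors smaller. With the tag set as the block, 1 positive and 2 negative strains and 0 members passed. At an unadjusted p under 0.05, 4 members were positive (HMG2, ERG12, ERG20 and ARE1), which is 11.4% of them against 9.12% of all strains. On the negative side there were also 4 (IDI1, ERG5, BTS1 and ECM22), 11.4% against 11.7% of all strains. Both shares were near those of all strains, and what follows describes the single strains.

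**Figure D1:**
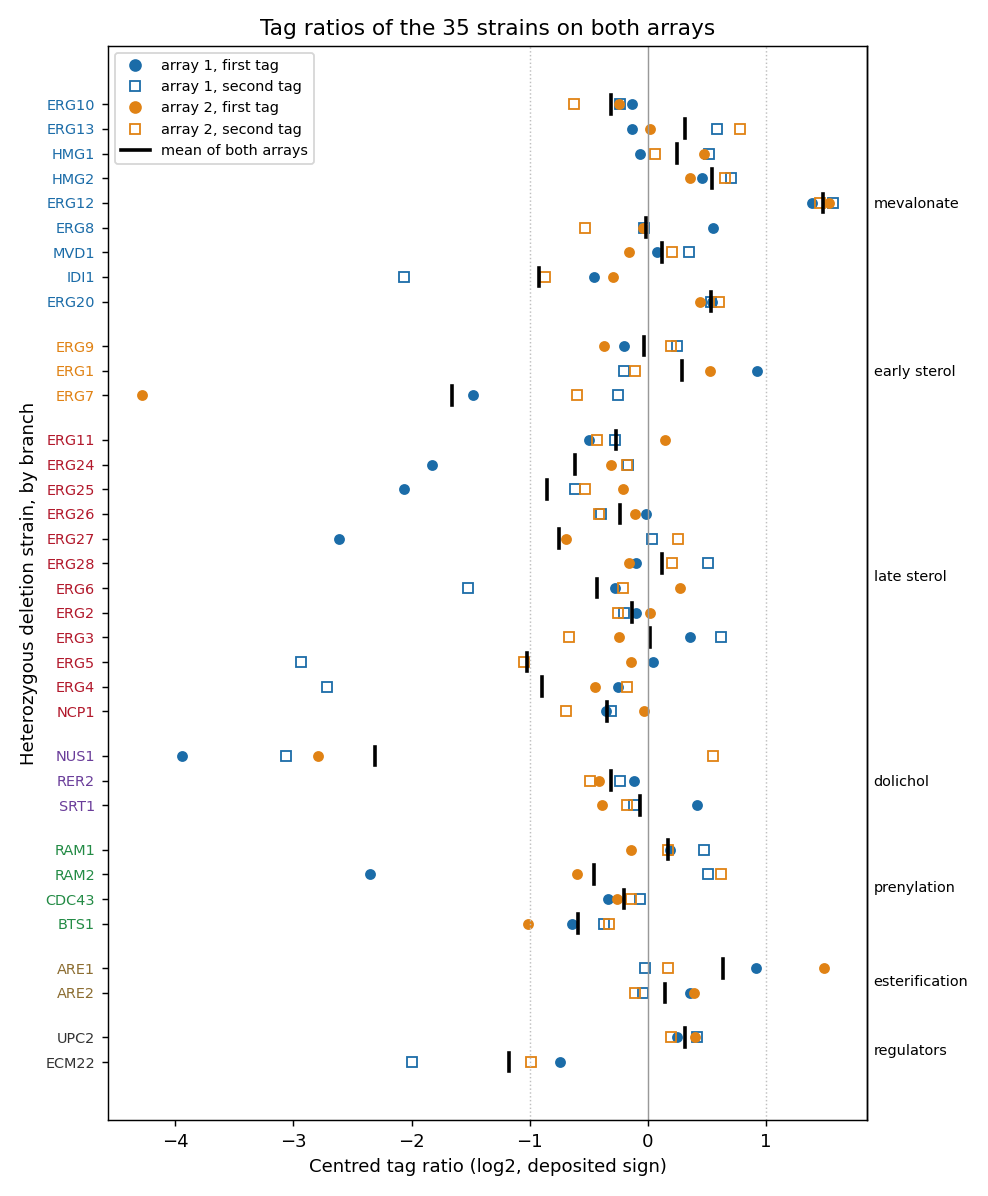
Centred tag ratios (log2, horizontal axis) of the 35 strains, ordered by branch, with the first tag as filled circles and the second as open squares, array 1 in blue and array 2 in orange. Black bars are means of both arrays and dotted lines mark 2-fold; the 4 ERG12 values lie together between 1.39 and 1.56, while many negative means rest on 1 tag far from the others.

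The strain lacking 1 copy of ERG12 (YMR208W, chromosome XIII) gave 1.39 and 1.56 with its first and second tag on array 1 and 1.53 and 1.46 on array 2. All 4 values were high and nearly the same. The mean was 1.48 ± 0.01, a 2.80-fold ratio with a limma standard error of 0.13 and an adjusted p of 0.229. It ranked 9th of 5219 by its mean, and only 4 strains of the 5191 with 4 tag values, ERG12 among them, had every tag at or above 1.39. Among the 37 strains at least 2-fold positive on both arrays with 4 tag values, its range over the tags, 0.17, was the 2nd smallest, against a median range of 0.58. ERG12 was the 1 member at least 2-fold positive on both arrays, 2.86% of members against 0.728% of all strains, and the 1 such member on array 1 (1.57% of all strains) and on array 2 (1.63%). The strains deleted for the adjacent genes did not share this level: HFA1 stood at -1.28 ± 1.70 and YMR209C at 0.37 ± 0.15.

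The enzymes upstream of mevalonate kinase had smaller ratios. ERG10, the acetoacetyl-CoA thiolase gene that starts the pathway, gave -0.18 on array 1 and -0.43 on array 2, with all 4 tags negative. ERG13, which encodes HMG-CoA synthase, gave 0.23 and 0.39, carried by its second tag with 0.58 and 0.78, while the first stood at -0.13 and 0.01. HMG1 and HMG2 are the paralogous genes of HMG-CoA reductase, the rate-limiting enzyme. HMG2 (YLR450W, chromosome XII) gave 0.45 and 0.71 with its tags on array 1 and 0.35 and 0.65 on array 2, all positive, for a mean of 0.54 ± 0.06 (limma adjusted p 0.232). HMG1 gave -0.06 and 0.52 on array 1 and 0.48 and 0.06 on array 2, with a mean of 0.25 ± 0.03. HMG1 was lower than HMG2 on each array, with a mean difference of -0.29 ± 0.08. This order depended on the surroundings of the 2 genes. Less the median level of the 20 nearest measured strains in gene order, HMG1 stood at 0.78 and HMG2 at 0.46.

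The steps after mevalonate kinase did not follow ERG12. ERG8, the phosphomevalonate kinase gene that acts directly after it, changed sign between arrays, at 0.26 and -0.29. The first tag of ERG8 read 0.55 on array 1 and -0.05 on array 2, and the second read -0.03 and -0.53. ERG12 thus exceeded ERG8 by 1.22 on array 1 and by 1.78 on array 2. MVD1, which encodes mevalonate pyrophosphate decarboxylase, stood near 0 at 0.12 ± 0.13. IDI1, the isopentenyl pyrophosphate isomerase gene, had the lowest ratio of the mevalonate steps, at -1.26 on array 1 and -0.58 on array 2. Array 1 gave -0.46 and -2.06 for its tags and array 2 gave -0.30 and -0.87, so that all were negative and the second was the lower one both times. The IDI1 mean was -0.92 ± 0.48 (limma adjusted p 0.238).

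ERG20 encodes farnesyl pyrophosphate synthase, the enzyme at the branch point. Its tags read 0.54 and 0.53 on array 1 and 0.44 and 0.60 on array 2, all positive and within a narrow range. The ERG20 mean was 0.53 ± 0.01 (limma adjusted p 0.232). HMG2, ERG12 and ERG20 were the 3 members at or above 0.5 on both arrays, 8.57% of members against 6.78% of all strains. In the mevalonate steps together, 6 of 9 strains were positive on both arrays and 2 negative, where 32.7% of all strains were positive and 41.7% negative on both. The branch median was 0.23 on array 1 and 0.27 on array 2, above the medians of all strains, which were -0.09 and -0.03. Branches were compared by their values, with no test.

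**Figure D2:**
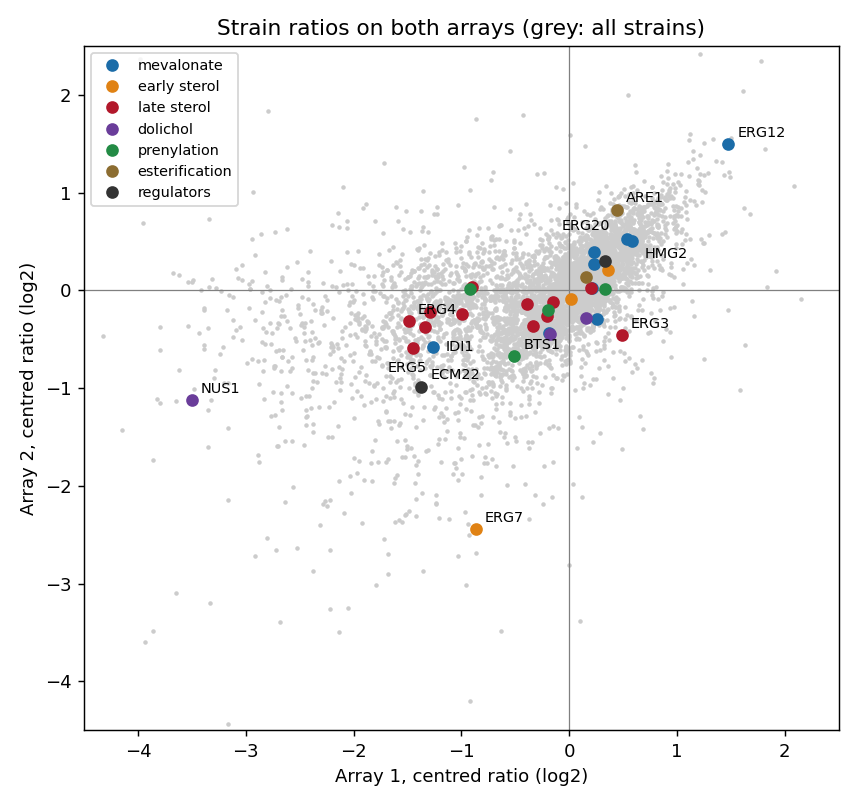
Centred strain ratios (log2, mean of both tags) on array 1 against array 2, with members coloured by branch and all other strains in grey; 9 strains lie outside the axes. ERG12 stands at 1.48 and 1.49, mevalonate strains lie mostly to the upper right of 0, and most late sterol strains lie further from 0 on array 1 than on array 2.

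The first steps of the sterol branch gave different ratios. ERG9, the squalene synthase gene that commits farnesyl pyrophosphate to sterols, stood at -0.03 ± 0.08, with its first tag negative and its second positive on both arrays. ERG1, which encodes squalene epoxidase, the target of terbinafine, had a mean of 0.28 ± 0.10. Its first tag gave 0.92 and 0.53 and its second -0.20 and -0.11, so the tags differed in sign on both arrays. ERG7, the lanosterol synthase gene, had -0.87 on array 1 and -2.44 on array 2, the lowest array 2 value of the list. Its first tag gave -1.48 and -4.28 and its second -0.26 and -0.60, all negative but of unequal size. The ERG7 mean was -1.65 ± 1.11 (limma adjusted p 0.242).

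In the steps from lanosterol to ergosterol, 9 of 12 strains were negative on both arrays, 1 was positive and 2 changed sign. Over the whole list 17 of 35 members, 48.6%, were negative on both arrays and 12, 34.3%, positive, against 41.7% and 32.7% of all strains. In addition, 6 members changed sign (ERG8, ERG9, ERG6, ERG3, SRT1 and RAM2), 17.1% against 25.5% of all strains. The branch median was -0.64 on array 1 and -0.25 on array 2. ERG11, the lanosterol demethylase gene and target of azole drugs, had -0.39 and -0.14, with 3 of 4 tags negative. NCP1, which encodes the reductase that passes electrons to the P450 enzymes of the pathway, had -0.33 and -0.36, with all 4 tags negative. ERG26 and ERG2 were smaller and close between arrays, at -0.23 ± 0.04 and -0.13 ± 0.03. ERG26 takes part in removing methyl groups from the sterol ring, and ERG2 encodes a sterol isomerase. ERG28, the scaffold of the demethylation enzymes, was the highest of the branch at 0.12 ± 0.13, where its first tag gave -0.10 and -0.16 and its second 0.51 and 0.21. ERG3, a sterol desaturase gene, changed sign between arrays, at 0.49 and -0.46.

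The larger negative means of the late sterol steps rested mostly on 1 tag on array 1. ERG24, a sterol reductase gene, gave -1.82 with its first tag on array 1, and its other 3 values lay between -0.31 and -0.17. ERG25, the sterol methyl oxidase gene, gave -2.06 with its first tag on array 1 and -0.21 with the same tag on array 2. Its mean was -0.86 ± 0.69. ERG27, which encodes the keto reductase of the same demethylation complex, gave -2.62 and -0.69 with its first tag and 0.03 and 0.26 with its second. ERG4, the gene of the last reductase of the pathway, gave -2.72 with its second tag on array 1 and -0.17 with it on array 2. For none of these 4 strains was the low tag of array 1 at or under -1.5 on array 2. It was again the lower tag of the pair in ERG27 (-0.69 against 0.26) and ERG24 (-0.31 against -0.17). In ERG25 and ERG4 it was the higher one.

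ERG5 and ERG6 lie in a stretch of chromosome XIII where second tags were low in general. ERG5 (YMR015C), a P450 desaturase gene, gave 0.05 and -2.94 with its tags on array 1 and -0.14 and -1.05 on array 2, for the lowest mean of the late sterol steps, -1.02 ± 0.60 (limma adjusted p 0.240). Over the 20 nearest measured strains in gene order, the median of the second tag was -3.06 on array 1 and -1.0 on array 2, and that of the first tag was 0.24 and 0.06. The ERG5 ratio was thus at the level of its surroundings, and less that level its mean was -0.08. ERG6 (YML008C), the sterol methyltransferase gene, gave -0.28 and -1.52 on array 1 and 0.27 and -0.21 on array 2. The nearest strains had second-tag medians of -2.88 and -0.88, and less the level of these strains ERG6 turned from -0.43 ± 0.66 to 0.51. For the other 33 members the medians of the nearest strains lay between -0.70 and 0.47 for every tag and array. Without ERG5 and ERG6, 8 of 10 late sterol strains kept a negative ratio on each array, around a median of -0.31, a restriction made after the values were seen.

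**Figure D3:**
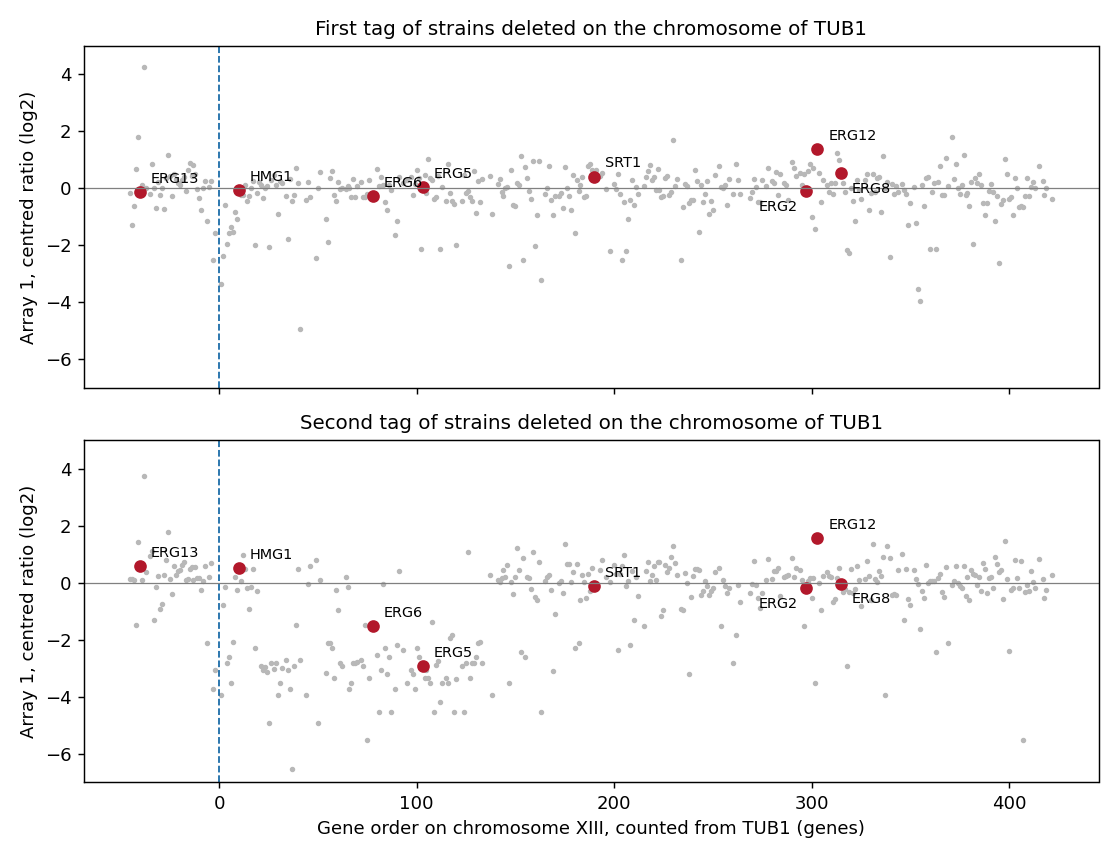
Centred ratios (log2, vertical axis) on array 1 of strains deleted on chromosome XIII, by gene order from TUB1 (dashed line), for the first tag above and the second tag below; members are red and all other strains grey. ERG5 and ERG6 lie in a stretch of low second tags, at -2.94 and -1.52, with first tags near 0, and ERG12 lies far above its surroundings with both tags.

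HMG1 (YML075C) lies 10 genes from TUB1, and of the 19 measured strains within 10 genes of TUB1, 14 had a negative ratio on each array. Their median over all 19 was -0.71. HMG1 was 1 of 4 positive on both arrays and ranked 3rd of the 19. Less the level of its nearest strains, its mean was 0.78. ERG13, ERG2, ERG8, ERG12 and SRT1 also lie on chromosome XIII, further from TUB1. The 8 members on this chromosome had a median of -0.04 and the 27 elsewhere -0.27, while all 410 measured strains of the chromosome had -0.20.

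NUS1 had the lowest ratio of the list. It encodes a subunit of the cis-prenyltransferase that makes the dolichol chain. The strain (YDL193W, chromosome IV) gave -3.94 and -3.06 with its tags on array 1, and -2.79 and 0.55 on array 2. Both tags were low on array 1, the 1 member with both at or under -1.5 there (2.86% against 3.68% of all strains), but on array 2 the second tag was positive. The mean was -2.31 ± 1.68, with array values of -3.50 and -1.12 (limma adjusted p 0.253), and 35 of all strains had a mean this low or lower. NUS1 was the 1 member at least 2-fold negative on both arrays, 2.86% of members against 3.74% of all strains. At or under -0.5 on both arrays were 6 members (IDI1, ERG7, ERG5, NUS1, BTS1 and ECM22), 17.1% against 12.5%. The 6 measured strains within 3 genes of NUS1 lay between -0.60 and 0.29. RER2, the catalytic partner of NUS1, had -0.31 ± 0.19. Its tags, all negative, read -0.11 and -0.24 on array 1 and -0.41 and -0.49 on array 2. SRT1, the paralog of RER2 with a similar activity, had 0.15 and -0.28, where the first tag gave 0.42 and -0.39 and the second -0.11 and -0.17. RER2 was lower than SRT1 on both arrays, with a mean difference of -0.25 ± 0.11, and it exceeded NUS1 by 3.33 on array 1 and by 0.67 on array 2.

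**Figure D4:**
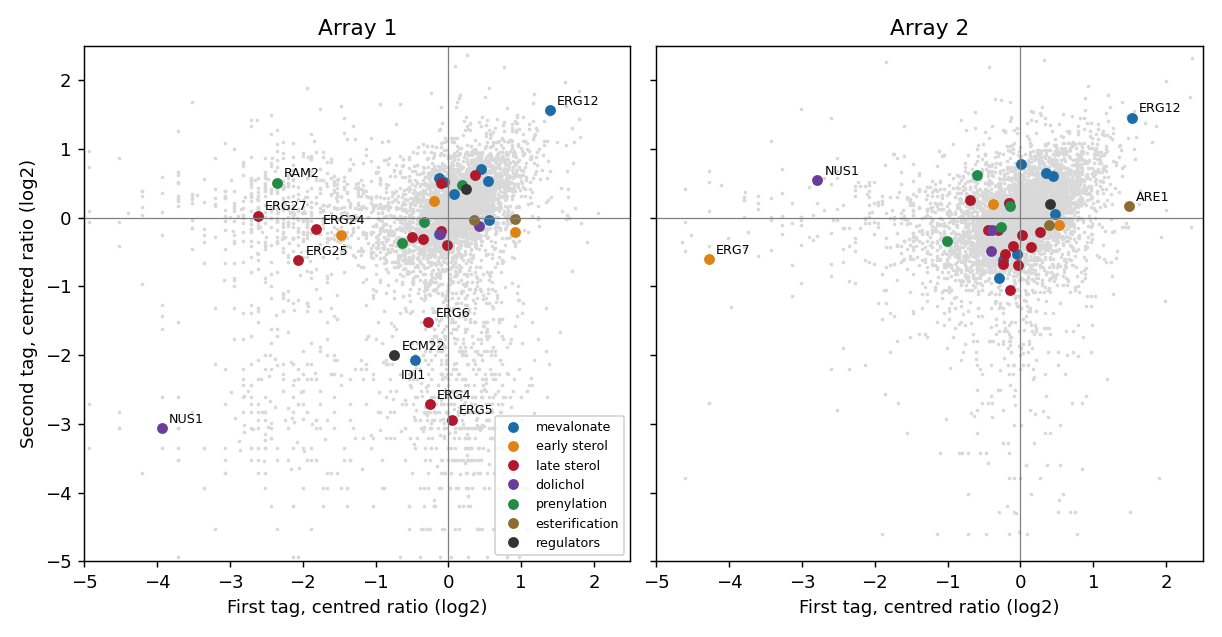
First tag against second tag (centred ratio, log2) on array 1, left, and array 2, right, with members coloured by branch and all other strains in grey. On array 1, 9 members have 1 tag at or under -1.5 and the other between -0.74 and 0.51, and on array 2 the members with a tag this low are ERG7 and NUS1.

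Of the genes for protein prenylation, none was 2-fold from 0 on both arrays. BTS1 makes geranylgeranyl pyrophosphate from farnesyl pyrophosphate. It gave -0.64 and -0.37 with its tags on array 1 and -1.01 and -0.33 on array 2, all negative. The BTS1 mean was -0.59 ± 0.12 (limma adjusted p 0.230), so that BTS1 was below ERG20, whose product it uses, by 1.04 on array 1 and 1.20 on array 2. CDC43, the beta subunit gene of the type I geranylgeranyl transferase, had -0.20 on both arrays, with all 4 tags between -0.33 and -0.06. RAM2, the alpha subunit gene shared by both prenyltransferases, had -0.92 on array 1 and 0.01 on array 2, and its tags disagreed on both. The first gave -2.35 and -0.60 and the second 0.51 and 0.62. RAM1, the beta subunit gene of farnesyltransferase, was highest in this branch at 0.17 ± 0.23, where the first tag gave 0.19 and -0.14 and the second 0.48 and 0.17.

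The sterol acyltransferase paralogs ARE1 and ARE2, which store sterols as esters, had 6 spots for each tag. The 6 first-tag spots of ARE1 averaged 0.91 ± 0.13 on array 1 and 1.49 ± 0.21 on array 2 (SD between spots). Its second tag averaged -0.02 ± 0.03 and 0.17 ± 0.17, so the tags of this strain differed by more than their spots scattered. The ARE1 mean was 0.64 ± 0.27, the highest outside the mevalonate steps (limma adjusted p 0.238). ARE2 showed the same order at lower values, with 0.36 and 0.39 for the first tag and -0.04 and -0.11 for the second, and a mean of 0.15 ± 0.01. ERG2, the other member with 6 spots for each tag, averaged -0.10 and 0.02 with the first tag and -0.20 and -0.25 with the second.

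UPC2 and ECM22 encode paralogous zinc cluster factors that activate sterol synthesis genes. UPC2 gave 0.24 and 0.42 with its tags on array 1 and 0.40 and 0.19 on array 2, all positive, for a mean of 0.31 ± 0.02. ECM22 (YLR228C, chromosome XII) gave -0.74 and -2.0 on array 1, and -0.99 with its second tag on array 2, where its first had no value. Every measured ECM22 value was thus below every UPC2 value. The ECM22 mean of -1.18 ± 0.27 (limma adjusted p 0.229) rests on 3 tag values, with the array 2 value from the second tag alone. UPC2 exceeded ECM22 by 1.70 on array 1 and by 1.28 on array 2. All 4 measured strains within 3 genes of ECM22 were also negative, between -1.23 and -0.71, with a median of -0.74; the lowest was the adjacent CDC42. The part of this stretch in the ECM22 value was not tested. The medians of the 20 nearest strains lay between -0.07 and 0.05 for every tag and array.

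All 4 tags were positive in 4 members (HMG2, ERG12, ERG20 and UPC2), 11.4% against 20.3% of all strains. All 4 were negative in 11 members (ERG10, IDI1, ERG7, ERG24, ERG25, ERG26, ERG4, NCP1, RER2, CDC43 and BTS1), 31.4% against 20% of all strains. A tag at or under -1.5 occurred on array 1 in 10 members, 28.6% against 25.4% of all strains, and on array 2 in 2 members, 5.71% against 7.51%. In 9 of those 10 members it was 1 tag of the pair, the first in ERG24, ERG25, ERG27 and RAM2 and the second in IDI1, ERG6, ERG5, ERG4 and ECM22. On array 2 the same tags of these 9 strains lay between -1.05 and -0.17. Of the 9, 6 belong to the late sterol steps. Array 1 ratios at or under -1 were likewise about as frequent in the list as in all strains, with 7 members, 20%, against 19.3%, and on array 2 the counts were 2 members, 5.71%, against 5.84%.

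Between array 1 and array 2, Pearson's r over the 35 strains was 0.643 and Spearman's rank correlation 0.703. Without ERG12 and NUS1 these were 0.544 and 0.649. Over all 5219 strains they were 0.526 and 0.606. These points share tags, dyes and array design, so this is a description of agreement only. The 2 tags of a strain agreed less, with a rank correlation of 0.508 on array 1 over 35 strains and 0.220 on array 2 over 34. Over all strains with both tags the rank correlation was 0.264 on array 1 and 0.377 on array 2. The median gap between the tags of a member was 0.53 on array 1 and 0.42 on array 2, against 0.46 and 0.35 over all strains.

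Essential genes of the list had ratios of both signs. Of the 19 members whose full loss is lethal in the standard deletion collection, 5 were positive and 11 negative on both arrays, where 32.7% of all strains were positive and 41.7% negative. Their median was -0.27 and their range ran from NUS1 to ERG12. Of the 15 non-essential members, 7 were positive and 5 negative, with a median of 0.02, from ECM22 to ARE1. ERG24, whose loss is lethal under some conditions, was counted in neither group.

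Related genes outside the list were spread around 0, and 55 of 59 had a value. At an unadjusted p under 0.05, 6 were positive and 6 negative, 10.9% each against 9.12% and 11.7% of all strains, and by limma 0 had an adjusted p under 0.05. The 14 measured genes of sterol transport and uptake had a median of -0.03. Among them NPC2, which encodes a vacuolar sterol-binding protein, gave 1.28 on array 1 and 1.20 on array 2, with all 4 tags between 1.16 and 1.41. It was the 1 related strain at least 2-fold from 0 on both arrays, with a mean of 1.24 ± 0.06 (limma adjusted p 0.229). HES1, an oxysterol-binding protein homolog, was lowest there at -0.55 ± 0.08. The 5 genes of sterol ester hydrolysis and sterol acetylation had a median of 0.32, with 3 positive and 0 negative on both arrays. Over all strains the median was -0.09, with 32.7% positive and 41.7% negative on both arrays. SAY1, the sterol deacetylase gene, was highest at 0.84 ± 0.19, and YEH2, a sterol ester hydrolase gene, lowest at 0.06 ± 0.14. Genes of sterol regulation and regulated protein degradation had a median of -0.06 over 11 strains, from SSM4 at 0.47 ± 0.21 to UBC7 at -1.15 ± 0.62, an ubiquitin ligase and a ubiquitin-conjugating enzyme of the endoplasmic reticulum. The second tag of UBC7 gave -2.88 and -1.69, while the first gave -0.30 and 0.27. UBC7 lies in the chromosome XIII stretch of low second tags, as ERG5 does, and the second-tag medians of its 20 nearest strains were -3.21 and -0.80. SEC59, the dolichol kinase gene among the 6 negative strains, lies there too, with -2.62 and -1.24 against nearby medians of -3.06 and -1.05.

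Genes that act on prenylated proteins also lay on both sides of 0. MRS6, the Rab escort protein gene needed for geranylgeranylation of Rab GTPases, had 0.66 and 0.77, with all 4 tags between 0.44 and 0.89. BET2, the beta subunit gene of the Rab geranylgeranyl transferase, had 0.31 on both arrays. BET4, its alpha subunit gene, had -0.99 ± 0.88, with a second tag of -0.97 and -3.60 against 0.23 and 0.37 for the first. Of the 3 genes that process the prenylated end of proteins, STE24, a protease gene, was highest at 0.15 ± 0.21. STE14, the methyltransferase gene, was lowest at -1.13 ± 0.93, with a first tag of -3.94 on array 1 and its other 3 values between -0.74 and 0.36. The 12 measured genes of prenylated proteins had a median of -0.24, against -0.09 over all strains. On both arrays 3 were positive and 7 negative, where 32.7% of all strains were positive and 41.7% negative. Among 8 other users of isoprenoids the median was 0.07, from DFG10, which acts in dolichol synthesis, at 0.57 ± 0.11 to CAX4, a dolichyl pyrophosphate phosphatase gene, at -1.02 ± 1.25. The second tag of CAX4 gave -3.94 and -0.85, while the first gave 0.13 and 0.58.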

How the data were processed

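Tag ratios of 2 arrays in 1 group were analysed. The authors deposited 1 log2 ratio for each spot; 100% of the 40008 could be traced to a linear ratio with 2 decimals, within 0.001. Images were analysed with GenePix 5.1, per the labels; how background was corrected and ratios normalized is not given in the sources used here. The smallest linear ratio was 0.01 (found in 0 member values), and 2 filled-in values were treated as missing. Of 22575 probes, 18794 had 1 gene symbol, 3781 none and 0 several; 18786 matched NCBI's gene table (R64), from which only names and the order of genes were taken. The first and second tag sets are 10971 probe numbers apart, and 105 symbols with several probes in a set were left out. Replicate spots were averaged, the median of every tag set on every array was subtracted (a shift of 0.12 on array 1 and 0.04 on array 2), and both tags were averaged. All 5219 strains were tested against 0 with limma 3.58.1 in R 4.3.3 (lmFit, eBayes, two-sided, Benjamini-Hochberg over all strains, threshold 0.05), after a test on simulated data. Python 3.11.15 with pandas 2.3.3 made the tables, and matplotlib 3.10.9 drew the plots. The number of arrays limits the precision. Every member is named, with all tags for those past 0.5 on both arrays, the ends of each branch and the paralogs. Of the related lists the ends and each strain 2-fold from 0 on both arrays are named, except that the ends of the list of prenylated proteins are not reported here, and other genes named were chosen after their values were seen. Members and lists were chosen with earlier results of these data known. SUT1 stands in 2 related lists.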

Additional observations from a re-analysis of the deposited data

How the results depend on the processing

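No paired analysis was possible because there is 1 group. The mevalonate median stayed positive (0.17 to 0.31) and the late sterol (-0.64 to -0.15, the latter with the first tag alone), dolichol and all-member medians negative under every alternative run for them; the causes of the changes below were not tested. Without centring the medians were 0.17 for mevalonate, -0.12 for early sterol and -0.28 for all members, 2 members were 2-fold negative on both arrays, and ERG3 turned to -0.066. After quantile normalization 2 members were 2-fold negative, the regulator median was -0.66 and ERG3 was -0.18. With the first tag alone 2 members were 2-fold negative; medians were 0.21 for mevalonate, -0.29 for early sterol, -0.56 for prenylation, 0.79 for esterification, 0.32 for the regulators (UPC2 alone, since ECM22 lacks a first-tag value on array 2) and -0.060 for all members, and the sign turned for ERG13 (-0.058), ERG8 (0.25), MVD1 (-0.040), ERG28 (-0.13) and SRT1 (0.014). With the second tag alone medians were 0.29, -0.15, 0.11, -0.0018, -0.59 and -0.15 in the same order, and the sign turned for ERG9 (0.22), ERG1 (-0.15), ERG27 (0.14), ERG3 (-0.027), RAM2 (0.56) and ARE2 (-0.075). With both tags in limma and the array as a random block, 350 positive and 166 negative of 5219 strains passed. Of 35 members, 3 passed as positive, ERG12 (limma adjusted p 0.0168), ERG20 (0.0392) and HMG2 (0.0434), and 0 as negative. The correlation estimated within an array was -0.29, which by construction makes standard errors smaller. With the tag set as the block 1 positive and 2 negative strains passed, and 0 members. Median over spots, robust eBayes and leaving out the smallest ratios changed no member's direction or call. Leaving out 1 array gave no test. Without array 1 or array 2, the prenylation median ranged from -0.35 to -0.10 and that of all members from -0.20 to -0.18, and 2 to 7 members were 2-fold negative. Over the same settings ERG6 ranged from -0.90 to 0.031, ERG3 from -0.46 to 0.49, RAM2 from -0.92 to 0.0097, ERG8 from -0.29 to 0.26, ERG9 from -0.088 to 0.021 and SRT1 from -0.28 to 0.15. Of 2 alternatives chosen after seeing the data, the median of a strain's tag values gave -0.12 for prenylation and -0.15 for all members. Subtracting the level of the 20 nearest strains (15 for ERG13) gave a mevalonate median of 0.31 and turned ERG8 to 0.0094 and ERG6 to 0.51. Of the other members, 12 were counted as moved without a change of sign and 21 as the same.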
